A study of Mus musculus with 13 samples.

Results

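The genes described are 9 transcription factor genes of the ventral forebrain and of interneurons, Dlx1, Dlx2, Dlx5, Dlx6, Gsx1, Gsx2, Lhx6, Sp8 and Sp9. They were taken by name and not by a measured value, though earlier results of these data were known. They were matched to the deposited gene bodies by Entrez gene identifier. Of the 9, 8 had a gene body among the 20689 gene bodies of the table. Dlx6 had none and was not analysed here. The body of Dlx1 shares 3343 of its bases with that of Dlx1as, so it was set aside, and 7 gene bodies were left for the comparisons.

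In the developing forebrain, Gsx2 and Gsx1 are homeobox genes of ganglionic eminence progenitors, and Gsx2 acts upstream of the Dlx genes. Dlx1 and Dlx2 lie side by side, as do Dlx5 and Dlx6. They encode homeobox factors that promote the GABAergic neuron fate. Lhx6 encodes a LIM homeobox factor of interneurons from the medial ganglionic eminence, and Sp8 and Sp9 encode related zinc-finger factors of ventral progenitors and of interneurons that arise from them. KAT7, also called HBO1, is a lysine acetyltransferase that works in complexes with BRPF or JADE scaffold proteins and acetylates lysine 14 of histone H3 (H3K14ac).

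KAT7 and H3K14ac were profiled by chromatin immunoprecipitation followed by sequencing (ChIP-seq). The cells were mouse neural stem and progenitor cells in neurosphere culture, started from cortices and ganglionic eminences of E14.5 embryos and collected on day 3 of passage 5. Kat7-deleted cells were Kat7lox/lox NesCreT/+ and Kat7-intact cells Kat7+/+ NesCreT/+, so both genotypes carried the Cre transgene driven by nestin sequences. The labels name 1 KAT7 library of Kat7-deleted and 3 of Kat7-intact cells, 3 H3K14ac libraries of Kat7-deleted and 4 of Kat7-intact cells, and 2 IgG libraries. The deposited table holds 1 merged KAT7 column (read total 134111848) and 1 merged H3K14ac column (read total 141734087), and which genotypes entered them is not given in the sources used here. There is thus no replicate, genotype or IgG comparison below, and the deletion of Kat7 could not be checked. Values are RPKM, reads per kilobase of region scaled to the read total of the column, on mm10, with 95% counting intervals in parentheses. PCR copies are not independent molecules, so these intervals cover counting error only. Since antibodies can differ in efficiency, each KAT7 to H3K14ac ratio is set beside the ratios of all regions of its class. A ratio is called high below where KAT7 was at least 25% above H3K14ac, and low where KAT7 was at least 20% below it. In these cultures a signal in fewer cells and less signal per cell cannot be told apart. The file marks genes as Top, Other or Bottom in expression: 4 of 10 markers of neural stem and progenitor cells were Top and 0 were Bottom, 3 of 4 endothelial and mural markers were Bottom, 1 of 6 neuronal markers was Top and 1 Bottom, 2 of 5 oligodendrocyte lineage markers were Top, and the 4 microglial and 4 astrocyte markers had neither mark. All 8 genes described here were Other, as were all genes of the table but the 1034 Top and 1035 Bottom ones among 20689.

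The windows around the start sites are shown first, because islands over these sites and islands farther inside the genes differed in joined reads below. Each window holds 250 bases before the transcription start site (TSS) and 50 after it, from RefSeq (GRCm38.p6), written 5′ to 3′ on the strand of the gene. Capitals mark 2 motifs searched on both strands: TAATTA, a core often bound by homeodomain proteins and its own reverse complement, and GGGCGG, a GC box of the kind bound by Sp family factors. They cannot overlap each other. The windows are Sp9 (chr2:73271676-73271975, plus strand), Sp8 at the TSS of the table (chr12:118846079-118846378, plus strand), Sp8 at a further RefSeq start site 904 bases downstream (chr12:118846983-118847282, plus strand), Gsx1 (chr5:147188446-147188745, plus strand), Gsx2 (chr5:75075351-75075650, plus strand) and Dlx2 (chr2:71546705-71547004, minus strand).
Sp9: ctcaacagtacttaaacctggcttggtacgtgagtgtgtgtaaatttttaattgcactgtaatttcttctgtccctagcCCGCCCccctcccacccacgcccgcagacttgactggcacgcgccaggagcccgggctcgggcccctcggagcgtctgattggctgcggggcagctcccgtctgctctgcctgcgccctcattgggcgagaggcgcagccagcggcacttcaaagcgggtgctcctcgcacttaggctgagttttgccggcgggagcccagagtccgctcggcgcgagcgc
Sp8, TSS of the table: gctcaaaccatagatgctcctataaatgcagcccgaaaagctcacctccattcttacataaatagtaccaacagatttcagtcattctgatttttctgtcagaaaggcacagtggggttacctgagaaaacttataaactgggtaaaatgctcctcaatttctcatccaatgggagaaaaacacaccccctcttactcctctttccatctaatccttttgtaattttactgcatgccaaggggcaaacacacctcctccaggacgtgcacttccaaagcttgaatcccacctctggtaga
Sp8, downstream start site: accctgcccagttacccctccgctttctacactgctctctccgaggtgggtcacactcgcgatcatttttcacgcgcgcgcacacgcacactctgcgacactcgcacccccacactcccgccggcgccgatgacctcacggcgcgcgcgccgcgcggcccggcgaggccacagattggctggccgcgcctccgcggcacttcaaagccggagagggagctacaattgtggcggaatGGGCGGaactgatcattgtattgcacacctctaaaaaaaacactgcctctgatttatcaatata
Gsx1: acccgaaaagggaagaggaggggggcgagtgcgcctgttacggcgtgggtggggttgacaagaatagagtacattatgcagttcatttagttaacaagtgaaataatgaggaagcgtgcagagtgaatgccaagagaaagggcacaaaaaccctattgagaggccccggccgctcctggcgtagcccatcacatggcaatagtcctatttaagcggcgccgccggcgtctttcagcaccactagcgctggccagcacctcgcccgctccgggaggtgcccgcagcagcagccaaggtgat
Gsx2: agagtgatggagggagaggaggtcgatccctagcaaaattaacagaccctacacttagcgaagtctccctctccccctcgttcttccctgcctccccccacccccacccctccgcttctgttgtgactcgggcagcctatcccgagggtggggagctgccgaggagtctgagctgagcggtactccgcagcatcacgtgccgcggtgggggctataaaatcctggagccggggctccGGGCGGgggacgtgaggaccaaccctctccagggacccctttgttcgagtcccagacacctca
Dlx2: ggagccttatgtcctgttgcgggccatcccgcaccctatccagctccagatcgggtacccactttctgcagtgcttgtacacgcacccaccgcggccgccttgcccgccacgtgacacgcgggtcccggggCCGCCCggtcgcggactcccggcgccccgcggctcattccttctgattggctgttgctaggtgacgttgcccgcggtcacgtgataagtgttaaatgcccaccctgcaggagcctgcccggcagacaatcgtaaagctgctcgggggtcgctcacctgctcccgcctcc

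RefSeq windows were matched for 7 of the 9 genes, all but Dlx5 and Dlx6, with 11 windows in all. A GC box occurs in 7 of the 11, those of Sp9, Gsx2, Dlx1, Dlx2, the downstream start site of Sp8 and 2 start sites of Lhx6, and in 35.7% of 32851 mouse windows. TAATTA occurs in 5.29% of all windows and, of the 11, in that of a further Sp8 start site (118847559) alone, which is not printed. CG dinucleotides separated the start sites of Sp8. The window at the TSS of the table held 2 and the one downstream held 32, against 25 for Sp9, 29 for Dlx2, 19 for Gsx1 and 17 for Gsx2 and a median of 7 over all windows. The table has no CpG island over the Sp8, Dlx5 and Lhx6 TSS and has one over the TSS of Dlx1, Dlx2, Gsx1, Gsx2 and Sp9. These matches describe letters in the windows and show no binding.

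Over gene bodies, KAT7 was close to the median of all gene bodies for most of these genes, and H3K14ac was low for several of them. Sp9 stood apart with high KAT7. Median KAT7 over the 7 bodies was 0.399, the same as the 0.399 of 15774 autosomal gene bodies, while median H3K14ac was 0.316 against 0.381. The KAT7 to H3K14ac ratio was high in 5 of the 7, Sp9, Sp8, Gsx1, Dlx2 and Dlx5, as in 7.53% of all gene bodies, and low in 0 of the 7, as in 2.22% of all (9.74% in either direction). Sp9 and Sp8 were also past 1.5-fold, as were 1.72% of all gene bodies. With each column scaled to its gene body median, 3 of the 7, Sp9, Sp8 and Gsx1, had a high ratio, as did 4.27% of all (7.73% in either direction). The interval of the unscaled ratio lay above 1 in 6 of the 7, all but Gsx2, beside 34.2% of all. With the scaling, the intervals of Dlx2 (0.975 to 1.55) and Dlx5 (0.990 to 1.47) held 1 as well. The median ratio was 1.28, against 1.05 over all gene bodies and 1.07 over the 7709 within the same range of length, of which 11.2% had a high ratio.

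Of the patterning genes, Gsx1 (gene 14842, chromosome 5, 147188696 to 147190947) had a KAT7 value of 0.398 (0.330 to 0.475) and an H3K14ac value of 0.285 (0.230 to 0.350), a ratio of 1.39 (1.05 to 1.85). Its H3K14ac lay above that of 2.08% of gene bodies and its KAT7 above that of 47.9%. Its paralogue Gsx2 (gene 14843, chromosome 5, 75075601 to 75077893) gave 0.400 (0.333 to 0.477) KAT7 RPKM beside 0.382 (0.317 to 0.455) H3K14ac RPKM, both near the median of all gene bodies, and a ratio of 1.05 (0.810 to 1.36). The Gsx1 ratio was 1.33 (0.904 to 1.96) times that of Gsx2, so the paralogues could not be told apart within counting error.

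Dlx2 (gene 13392, chromosome 2, 71543408 to 71546754, minus strand) had a KAT7 value of 0.377 (0.322 to 0.438) and an H3K14ac value of 0.293 (0.246 to 0.346), with a ratio of 1.28 (1.02 to 1.62). Dlx5 (gene 13395, chromosome 6, 6877805 to 6882068, minus strand) had a KAT7 value of 0.399 (0.349 to 0.454) and an H3K14ac value of 0.316 (0.273 to 0.364), with a ratio of 1.26 (1.04 to 1.54). Both had low H3K14ac, above 2.52% and 5.79% of gene bodies, and KAT7 below or at the middle of all genes, at 26.4% and 49.5%. Dlx1 (gene 13390, chromosome 2, 71529445 to 71533980) could be read only over the 1193 bases that Dlx1as does not cover, taking reads in the shared bases as uncounted. On that reading it gave 0.388 (0.297 to 0.497) KAT7 RPKM beside 0.355 (0.271 to 0.457) H3K14ac RPKM, a ratio of 1.09 (0.753 to 1.58), an interval that holds the 1.28 of Dlx2. Lhx6 (gene 16874, chromosome 2, 36081953 to 36105408, minus strand), the longest of the genes, had KAT7 of 0.392 (0.371 to 0.415) and H3K14ac of 0.344 (0.324 to 0.364), with a ratio of 1.14 (1.05 to 1.24). That ratio was above those of 77.5% of gene bodies but not high by the limit used here.

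Sp9 and Sp8 had the highest ratios. Sp9 (gene 381373, chromosome 2, 73271926 to 73275771) had a KAT7 value of 0.659 (0.591 to 0.733) and an H3K14ac value of 0.349 (0.301 to 0.402), a ratio of 1.89 (1.58 to 2.27). Its KAT7 ranked 224 and its ratio 38 from the top of 15774 gene bodies, and its H3K14ac was above that of 20.1% of them. Sp8 (gene 320145, chromosome 12, 118846329 to 118852578) gave 0.452 (0.408 to 0.500) KAT7 RPKM beside 0.286 (0.252 to 0.323) H3K14ac RPKM, a ratio of 1.58 (1.35 to 1.86) at rank 122. Sp8 thus combined KAT7 above 89.2% of gene bodies with H3K14ac above 2.10% of them. The ratio of Sp9 was 1.19 (0.935 to 1.53) times that of Sp8, within counting error, although the KAT7 intervals of the pair do not overlap. In order of gene body KAT7, Sp9 came first and Sp8 second, and Gsx2, Dlx5, Gsx1, Lhx6 and Dlx2 followed with overlapping intervals.

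**Figure D1:**
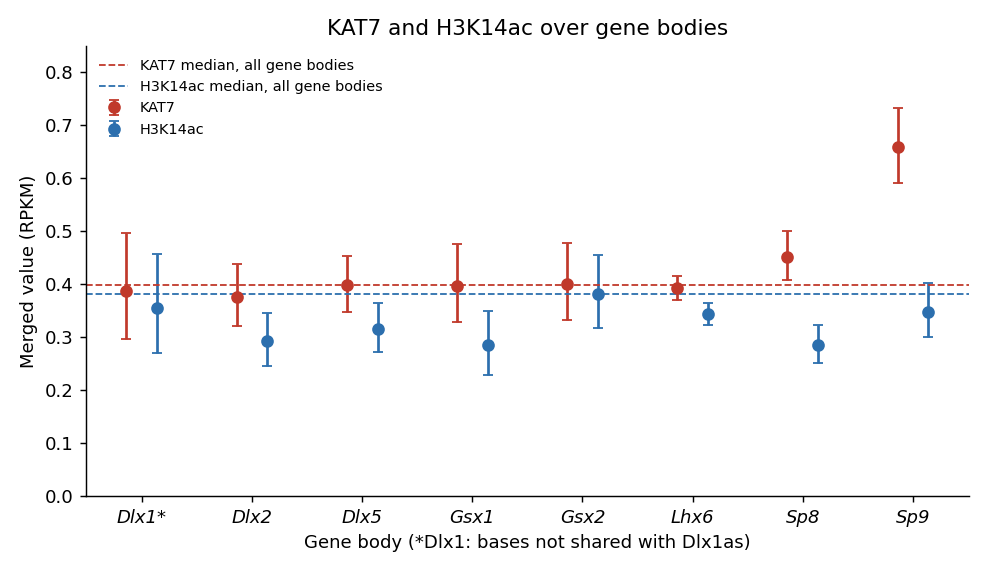
Merged KAT7 (red, left of each pair) and H3K14ac (blue) in RPKM for each gene body (Dlx1 over its unshared bases), with 95% counting intervals and the medians of all autosomal gene bodies as dashed lines (0.399 for KAT7 and 0.381 for H3K14ac). KAT7 is highest at Sp9, at 0.659, with Sp8 next at 0.452, and the whole H3K14ac interval lies below the median at Dlx2, Dlx5, Gsx1, Lhx6 and Sp8.

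The KAT7 reads of Sp9 were gathered in a CpG island inside the gene. This island (chromosome 2, 73272853 to 73274915) begins 927 bases downstream of the TSS, does not hold it and covers 53.6% of the gene body. It had a KAT7 value of 0.821 (0.718 to 0.935) from 227 reads and an H3K14ac value of 0.294 (0.235 to 0.363) from 86 reads, a ratio of 2.79 (2.17 to 3.62). KAT7 there was above that of 91.4% of 2954 islands that lie inside a gene body and hold no TSS of the table, and H3K14ac above that of 13.5%. The island held 66.8% of the KAT7 reads of the gene body and 45.3% of its H3K14ac reads. The remainder of the Sp9 body had 113 KAT7 and 104 H3K14ac reads, a ratio of 1.15 (0.872 to 1.51), so the island ratio was 2.43 (1.66 to 3.55) times that of the remainder. The island over the Sp9 TSS (73271755 to 73272054) had the opposite order, 0.349 (0.191 to 0.586) for KAT7 and 0.496 (0.307 to 0.757) for H3K14ac, from 14 KAT7 and 21 H3K14ac reads. Its ratio of 0.705 (0.331 to 1.45) was not distinguishable from 1, but the inner island had 3.94 (1.82 to 8.79) times that ratio.

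Sp8 and Gsx1 also had inner islands with a high ratio, but with less marked KAT7. KAT7 was above that of 55.0% of the 2954 islands at the longer Sp8 island and 69.4% at the Gsx1 island. H3K14ac at that Sp8 island was above that of 11.4%. In Sp8 the island from 118848513 to 118849904 on chromosome 12 gave a KAT7 value of 0.531 (0.431 to 0.646) beside 0.279 (0.210 to 0.363) for H3K14ac, a ratio of 1.90 (1.35 to 2.70). Its other inner island (118846728 to 118847223), nearer to the TSS, had KAT7 of 0.422 (0.280 to 0.610) and H3K14ac of 0.314 (0.197 to 0.475), and its ratio of 1.35 (0.742 to 2.47) could not be told from 1. Together the Sp8 inner islands had a ratio of 1.74 (1.30 to 2.34), with 33.5% of the KAT7 reads in 30.2% of the body's bases. The Sp8 body outside these islands had a ratio of 1.51 (1.24 to 1.85), an interval that overlaps that of the islands. The ratio of this Sp8 remainder was 1.32 (0.935 to 1.85) times that of the remainder of Sp9, within counting error. In Gsx1 the inner island (chromosome 5, 147189815 to 147190269) gave a KAT7 value of 0.608 (0.428 to 0.838) beside 0.140 (0.0640 to 0.266) for H3K14ac, from 37 KAT7 and 9 H3K14ac reads. The Gsx1 ratio of 4.34 (2.06 to 10.2) was at rank 17 of the 2954 islands, and its H3K14ac was above that of 1.62% of them. Without this island the Gsx1 body had 83 KAT7 and 82 H3K14ac reads, a ratio of 1.07 (0.779 to 1.47).

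The inner islands of the other genes were mixed. Of the 2 in Lhx6, the one nearer to the TSS (36104563 to 36105275) gave 0.429 (0.308 to 0.582) KAT7 RPKM beside 0.228 (0.144 to 0.342) H3K14ac RPKM, a ratio of 1.88 (1.10 to 3.29). The other (36103401 to 36104063) had KAT7 of 0.315 (0.210 to 0.456) and H3K14ac of 0.426 (0.305 to 0.581), in the opposite order. Farther inside Lhx6, the island from 36090914 to 36091737 had KAT7 of 0.353 (0.251 to 0.483) and H3K14ac of 0.403 (0.296 to 0.536), and the one from 36094200 to 36094509 had KAT7 of 0.458 (0.276 to 0.716) and H3K14ac of 0.411 (0.244 to 0.650), each with overlapping intervals; both are listed as far from a TSS and are not counted here. Of the 3 in Dlx5, the one farthest from the TSS (6879318 to 6879580) had a ratio of 2.51 (1.05 to 6.63) from 19 KAT7 and 8 H3K14ac reads, and the others had 1.33 (0.744 to 2.41) and 0.705 (0.310 to 1.55). The inner island of Gsx2 (75077075 to 75077280) was high for both antibodies, 0.837 (0.530 to 1.26) for KAT7 and 0.826 (0.529 to 1.23) for H3K14ac, with KAT7 above 92.4% and H3K14ac above 91.1% of inner islands. Inner here refers to the TSS of the table alone. A further RefSeq start site of Lhx6 (36104060) lies in its island from 36103401 to 36104063. Further start sites of Lhx6 (36104533) and Sp8 (118847233) lie just outside the Lhx6 island from 36104563 and the Sp8 island ending at 118847223. In all, 7 of the 10 inner islands had a high ratio, as did 36.5% of the 2954, and 2 had a low one, as did 23.1%. The interval lay above 1 for 5 of the 10, against 12.7% of all. That share was not matched for length, and longer islands can hold more reads and so have narrower intervals. The 10 islands ran from 206 to 2063 bases, beside a median of 386 over all. This grouping of islands was made after the values had been seen.

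The islands over the TSS had a lower joined ratio than the inner ones, which come from partly different genes. Ratios of the TSS islands ran from 0.705 at Sp9 to 1.26 (0.975 to 1.63) at Dlx2 (71544134 to 71546923), whose long island reaches far into the gene. Dlx1 (71528908 to 71529726) gave 0.428 (0.315 to 0.570) KAT7 RPKM beside 0.543 (0.418 to 0.695) H3K14ac RPKM, and Gsx2 (75075478 to 75076133) had KAT7 of 0.296 (0.193 to 0.434) and H3K14ac of 0.366 (0.254 to 0.512). Gsx1 (147188611 to 147189451) had KAT7 of 0.391 (0.284 to 0.524) and H3K14ac of 0.336 (0.240 to 0.458). Dlx2 alone of the 5 had a high ratio, as did 33.0% of 8896 islands over a TSS, and Dlx1 and Sp9 had low ones, as did 21.0% of all (54.0% in either direction). None of the 5 was past 1.5-fold, where 28.1% of all were, and 0 of 5 intervals left out 1, where 22.9% of all did. Median KAT7 at the 5 islands was 0.366, against 0.487 over all such islands, and median H3K14ac was 0.366, against 0.458 over all. Joined, the reads of the 10 inner islands gave 543 KAT7 and 308 H3K14ac reads and a ratio of 1.86 (1.62 to 2.15), and those of the 5 TSS islands gave 268 KAT7 and 273 H3K14ac reads and a ratio of 1.04 (0.873 to 1.23). The inner ratio was 1.80 (1.43 to 2.25) times the TSS ratio. Without the inner island of Sp9, but with its TSS island kept, it was 1.45 (1.13 to 1.86) times. Of these genes, Gsx1, Gsx2 and Sp9 alone had islands in both groups. In Gsx1 the inner ratio was 4.34 (2.06 to 10.2) and the TSS ratio 1.16 (0.740 to 1.83). Gsx2 had 1.01 (0.546 to 1.87) inside and 0.808 (0.466 to 1.39) over the TSS. The joined contrast does not separate differences between genes from differences between island places.

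**Figure D2:**
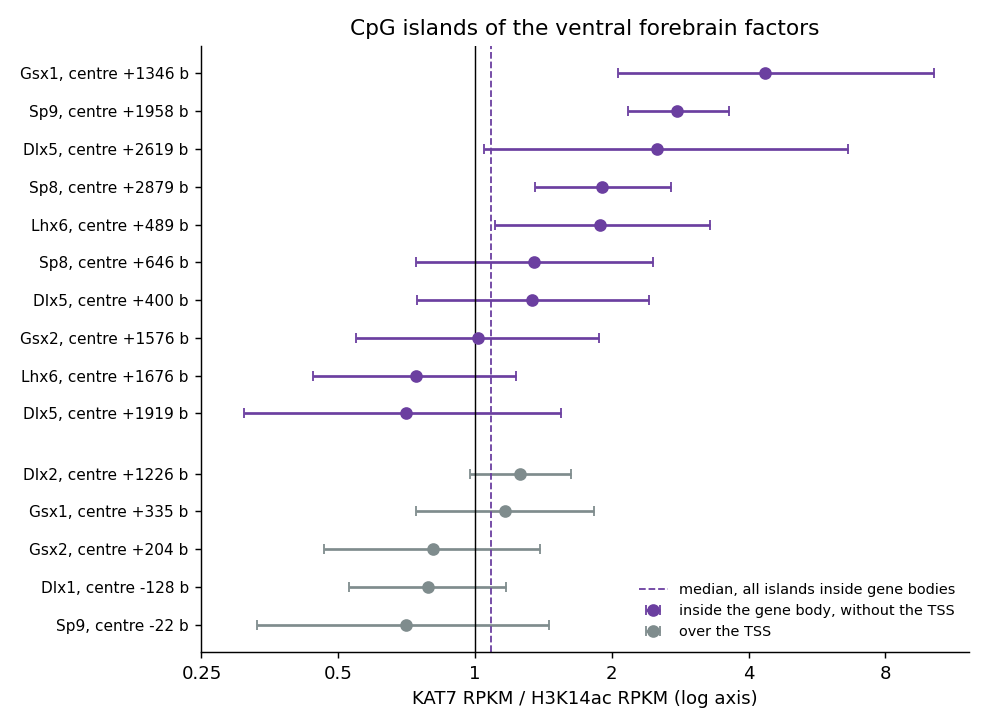
KAT7 to H3K14ac ratio (log axis) of each CpG island inside a gene body without the TSS (purple) and over the TSS (grey), with 95% counting intervals, labelled by gene and by the distance of the island's centre from the TSS in bases. Ratios above 2 occur at inner islands of Gsx1, Sp9 and Dlx5, and the islands over a TSS lie between 0.705 and 1.26.

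At islands outside the gene bodies and in promoter and end windows, the shares of high ratios were closer to those of all regions. Between Dlx1 and Dlx2 on chromosome 2, which share their flanks, the island from 71543089 to 71543374 gave 0.706 (0.466 to 1.03) KAT7 RPKM beside 0.248 (0.119 to 0.455) H3K14ac RPKM, a ratio of 2.85 (1.34 to 6.61), and the one from 71541001 to 71541590 had 1.54 (0.866 to 2.78). These were the 2 of 6 islands outside gene bodies with a high ratio, as had 38.7% of 992, and 0 of 6 had a low one, as had 20.6%. Promoter windows of 2001 bases before the TSS, usable for plus-strand genes alone, had ratios from 0.950 at Dlx1 to 1.43 (1.02 to 2.02) at Gsx1. Gsx1 was the 1 of 5 with a high ratio, as had 21.7% of all, and 0 had a low one, as had 5.17%. The 5 windows after the transcription end site had 0 high ratios, beside 18.5% of all, and 0 low ones, beside 5.45%.

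The table also lists Enh and IS elements, abbreviations that it does not explain. They overlap the gene bodies and islands and so share reads with them. Of 19 Enh regions in the gene bodies and 10000 bases either side, 12 had a high ratio, as had 28.9% of all Enh regions, and 0 had a low one, as had 16.3%. Joined, their ratio was 1.27 (1.21 to 1.35), beside 1.03 for the joined reads of all Enh regions. Their median ratio was 1.28, beside 1.06 over all. Enh regions with a high ratio lay both inside and outside the gene bodies. Some of them were 151 bases long, with few reads and intervals that hold 1. Upstream of Sp8, for example, the region from 118840400 to 118840550 had 1.32 (0.469 to 3.85) from 10 KAT7 and 8 H3K14ac reads. The Enh region over the Sp9 start and inner island (73269723 to 73275008) gave 0.550 (0.497 to 0.608) KAT7 RPKM beside 0.307 (0.269 to 0.349) H3K14ac RPKM. The one inside Sp8 (118846637 to 118850585) had KAT7 of 0.438 (0.384 to 0.498) and H3K14ac of 0.259 (0.219 to 0.305), and the one over the Lhx6 start (36101771 to 36106081) had KAT7 of 0.382 (0.334 to 0.436) and H3K14ac of 0.298 (0.256 to 0.345). The region downstream of Dlx5 (6862209 to 6877752), which covers the RefSeq locus of Dlx6, had KAT7 of 0.362 (0.337 to 0.389) and H3K14ac of 0.287 (0.265 to 0.311). Over Dlx1 (71524515 to 71535614) there was KAT7 of 0.394 (0.363 to 0.428) and H3K14ac of 0.356 (0.327 to 0.387), with overlapping intervals. Of the 5 Enh regions near Gsx2, the one with the highest KAT7 lower bound, and also the highest H3K14ac one (75084400 to 75084550), had KAT7 of 0.895 (0.530 to 1.41) and H3K14ac of 0.847 (0.502 to 1.34). Another of the 5 (75083200 to 75083350) had the highest ratio of the 19 Enh regions, 2.99 (1.13 to 9.28), from 17 KAT7 and 6 H3K14ac reads. Downstream of Sp9 the Enh region with the most H3K14ac (73280246 to 73280889) had a KAT7 value of 0.684 (0.521 to 0.883) and an H3K14ac value of 0.527 (0.388 to 0.698), which overlapped.

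IS elements are short, 92 to 608 bases around these genes, and 21 of the 44 held at least 20 reads. Of the 44, 16 had a high ratio and 13 a low one, near the shares of all IS elements, 34.9% and 32.3%. In joined reads, those inside gene bodies and those around them differed. The median ratio of those inside was 1.06, the same as over all such elements. That of those around was 0.845, beside 1.06 over all. The 21 inside had a joined ratio of 1.77 (1.48 to 2.11) and the 17 around had 0.894 (0.711 to 1.12), so that the inner ratio was 1.97 (1.47 to 2.65) times the outer. Of the 21 inside, 8 had a high ratio (35.3% of all such elements) and 3 a low one (32.0%), and of the 17 around, 6 had a high ratio (34.3%) and 8 a low one (32.7%). Sp9 carried much of this: its 4 inner elements had 0.970 for KAT7 from 155 reads and 0.273 for H3K14ac from 46 reads, a ratio of 3.56 (2.55 to 5.06). Without Sp9 the inner elements had a ratio of 1.23 (0.990 to 1.54), which was 1.38 (1.00 to 1.90) times the outer. The Sp9 element with the highest KAT7 lower bound (73273578 to 73273828) gave 1.16 (0.827 to 1.59) KAT7 RPKM beside 0.282 (0.135 to 0.519) H3K14ac RPKM, from 39 KAT7 and 10 H3K14ac reads. In Sp8 the element from 118849736 to 118849919 had KAT7 of 0.978 (0.627 to 1.46) and H3K14ac of 0.154 (0.0420 to 0.395), from 24 KAT7 and 4 H3K14ac reads. The opposite order was seen upstream of Sp8, centred at -9547 bases from the TSS, at the element from 118836676 to 118836888, with KAT7 of 0.352 (0.169 to 0.647) and H3K14ac of 0.965 (0.646 to 1.39). At the Dlx1 element with the most H3K14ac (71530104 to 71530198) there was KAT7 of 0.952 (0.492 to 1.66) and H3K14ac of 1.13 (0.630 to 1.86), which could not be told apart. Downstream of Dlx2, between it and Dlx1, the element with the most KAT7 (71540743 to 71540863) had KAT7 of 0.870 (0.476 to 1.46) and H3K14ac of 0.706 (0.365 to 1.23), and the one with the most H3K14ac (71536963 to 71537101) had KAT7 of 0.432 (0.187 to 0.852) and H3K14ac of 0.716 (0.391 to 1.20), again overlapping. Downstream of Lhx6 the element from 36079195 to 36079301 had KAT7 of 1.06 (0.591 to 1.74) and H3K14ac of 0.666 (0.319 to 1.22), likewise within counting error. No Enh or IS element of Gsx1 held 20 reads.

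**Figure D3:**
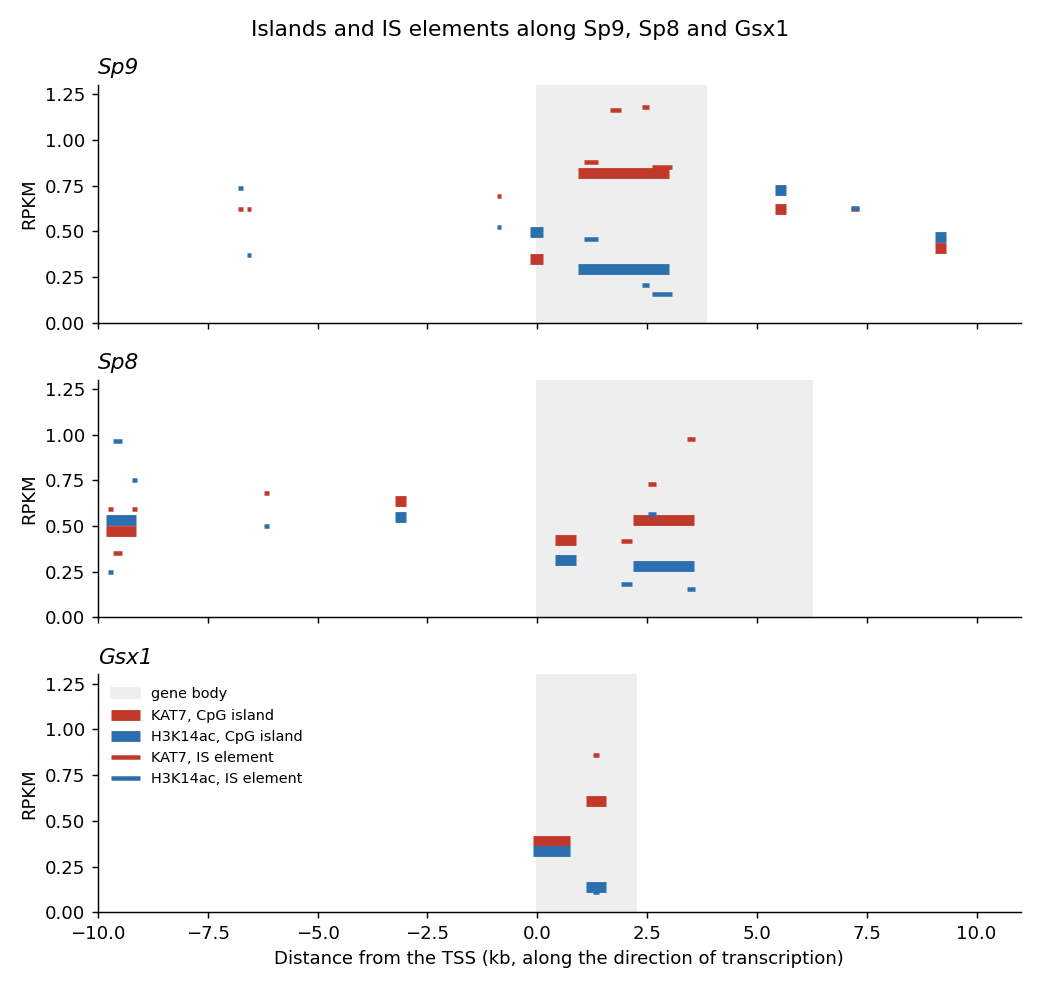
Merged KAT7 (red) and H3K14ac (blue) in RPKM at CpG islands (thick bars) and IS elements (thin bars) along Sp9, Sp8 and Gsx1, by distance from the TSS in kilobases, with the gene body in grey. The bars separate inside the gene bodies, as at the inner Sp9 island with 0.821 for KAT7 and 0.294 for H3K14ac, and lie closer together over the TSS of Sp9 and Gsx1.

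Other genes of the ventral forebrain and interneurons, and factors of the dorsal cortex, gave a background for the pattern. Of 36 further ventral and interneuron genes, 23 had a usable gene body, with a median ratio of 1.09, and 5 had a high ratio. These were Slc32a1, which encodes the vesicular GABA transporter, with 1.60 (1.32 to 1.95), Maf with 1.39 (1.13 to 1.72), Dbx1 with 1.30 (1.08 to 1.56), Six3 with 1.29 (1.11 to 1.5) and Gbx2 with 1.28 (1.05 to 1.57). None had a low ratio. Of 19 dorsal cortical factors, 16 were usable, with a median ratio of 1.03, and again 5 had a high ratio and none a low one. Dmrta2, a factor of cortical progenitors, had 1.90 (1.64 to 2.21), as high as Sp9, and Neurod2, of cortical neurons, had 1.56 (1.28 to 1.90). Emx2 had 1.41 (1.24 to 1.60) and Neurod1 had 1.30 (1.08 to 1.57). Of the 8 usable markers of neural stem and progenitor cells, 5 had a high ratio as well, with a median of 1.28. Of the 5 usable markers of the oligodendrocyte lineage, 1 had a high ratio. Among the usable markers of neurons (4), astrocytes (3), microglia (4) and endothelium and mural cells (4), 0 had one. Over all gene bodies the share was 7.53%. High ratios thus also occurred outside the ventral factors.

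At inner islands the joined ratio was 1.86 (1.62 to 2.15) for the genes described here, 1.12 (1.02 to 1.23) for 24 islands of the other ventral genes and 1.24 (1.13 to 1.36) for 18 islands of dorsal factors. The ratio of the genes described here was 1.66 (1.40 to 1.97) times the ratio of the other ventral genes and 1.5 (1.27 to 1.79) times that of the dorsal factors. Without the Sp9 island it was 1.34 (1.10 to 1.64) times the ratio of the other ventral genes and 1.21 (0.994 to 1.49) times that of the dorsal factors. The last interval holds 1, so without Sp9 a difference from the dorsal factors could not be told from counting error. Genes vary by more than counting error, which these intervals do not cover.

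**Figure D4:**
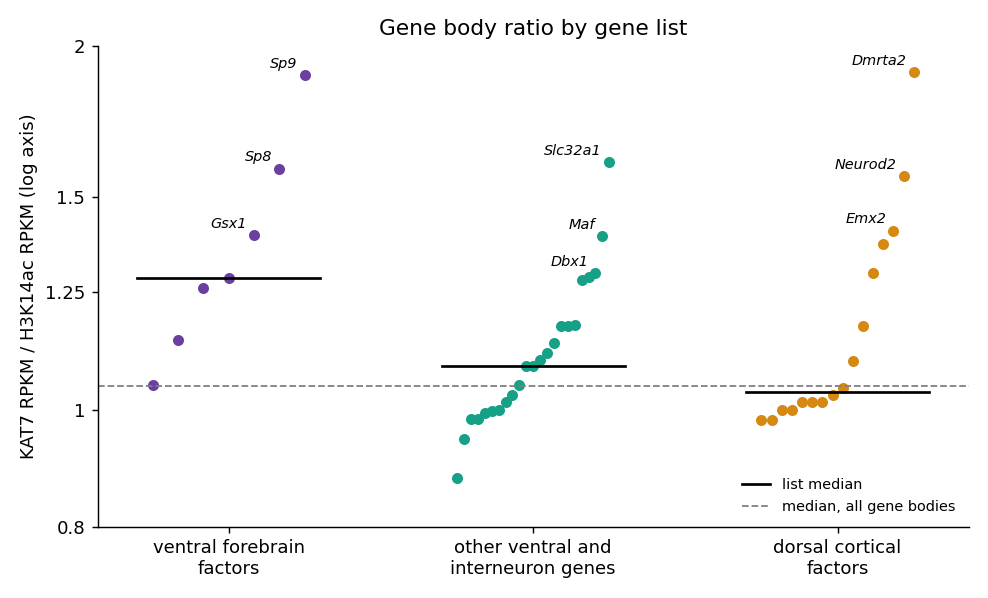
KAT7 to H3K14ac ratio of each usable gene body (log axis) for the ventral forebrain factors, the other ventral and interneuron genes and the dorsal cortical factors, with the median of each list as a bar and the median of all gene bodies as a dashed line (1.05). List medians are 1.28, 1.09 and 1.03, and the highest genes of the ventral factors and the dorsal factors, Sp9 and Dmrta2, lie at 1.89 and 1.90.

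The genes with values most like those of Sp9 were found by distance. By Euclidean distance over 4 log2 values (KAT7 and H3K14ac in the gene body and in the TSS island), the nearest of 7868 genes were Zfp688 at 0.446, Klf6 at 0.501, Slc39a7 at 0.514, Igfbp3 at 0.516 and Cox20 at 0.542. Gene body KAT7 of these 5 ranged from 0.483 at Slc39a7 to 0.605 at Cox20, below the 0.659 of Sp9. Their gene body H3K14ac ranged from 0.375 at Zfp688 to 0.490 at Cox20, above the 0.349 of Sp9, so each had a lower ratio than Sp9. The TSS island values of Sp9 rest on 14 KAT7 and 21 H3K14ac reads.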

How the data were processed

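ChIP-seq values came from 1 deposited table with 1 merged KAT7 and 1 merged H3K14ac column. The submitters' processing notes name mm10 and Bowtie2, SAMtools, Picard, deepTools and featureCounts, without versions or roles. Per the file headers, the authors give a read count and an RPKM value for each of 240814 regions in 12 classes. The deposited RPKM is the count over region length and 1 read total per column. What the terms SC and gc in the column names mean is not given in the sources used here, so a correction before counting is possible.

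Comparisons with genotype or IgG could not be made on merged columns. Regions sharing bases with another of their class, regions off the autosomes, regions with a mean RPKM under 0.1 and those above 5 RPKM in either column were left out of medians and shares. If reads over a region's edge were counted in full, short regions would have raised RPKM in both columns, which was not tested. Promoter and end windows on the minus strand have negative length and were not used. Single regions and joined reads carry exact Poisson or binomial 95% intervals (scipy 1.17.1, Python 3.11.15). The binomial interval was run on simulated gene body counts drawn from the binomial model it assumes. That run does not test whether the model holds for real reads. Ratios of summed RPKM carry approximate 95% counting intervals on the log scale, which were not simulated. Ratios of ratios carry exact conditional intervals. A ratio was called high or low past 25% above or 20% below. Gene symbols came from RefSeq (GRCm38.p6) by identifier. All 9 genes were named, with the Enh or IS element of each locus with the highest KAT7 or H3K14ac lower bound (at least 20 reads), genes of the comparison lists with a high ratio and the 5 genes nearest to Sp9. Of the comparison genes with a high ratio, 1 is not reported here. Islands and Enh regions named beyond these were chosen after their values were seen. The genes and lists were chosen with earlier results of these data known. Alternatives covered scaling, fold, window size, background and left-out genes. The exon structure of the genes was not used here.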

Additional observations from a re-analysis of the deposited data

How the results depend on the processing

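The median log2 ratio of the gene bodies stood 0.30 above that of all gene bodies, and between 0.26 and 0.30 above it with backgrounds of matched length or expression class and with a pseudocount. The ratio of summed RPKM over gene bodies was 1.37 (1.27 to 1.47), and 1.27 (1.17 to 1.38) without Sp9. The count of gene bodies past the limits in either direction was 5 of 7, beside 9.74% of all. It was 2 at 1.5-fold (1.72% of all) and 3 with each column scaled to its gene body median (7.73% of all). So scaled, Dlx2 and Dlx5 lay at 1.23 (0.975 to 1.55) and 1.20 (0.990 to 1.47). That scaling lowers every ratio by 0.07 on the log2 scale. Of the 5 islands over a TSS, 3 were past the limits (54.0% of all), 0 at 1.5-fold (28.1%) and 0 by an interval that leaves out 1 (22.9%), so none of these 3 stands beyond counting error. The summed ratio of TSS islands was 0.901 (0.727 to 1.12), and 1.18 with all islands within 2000 bases of the TSS, a set that takes in inner islands. The summed IS ratio was 1.21 (1.06 to 1.39) within 10000 bases and 1.49 (1.26 to 1.76) within 2000 bases. Within 50000 bases it was 1.10 (0.975 to 1.23), an interval that holds 1. Chosen after the data were seen, the summed ratio of inner islands was 1.47 (1.22 to 1.77). That of joined reads, which weighs the long Sp9 island more, was 1.86 (1.62 to 2.15). The summed ratio of IS elements in gene bodies, also chosen after the data were seen, was 1.5 (1.24 to 1.81). Without Sp9 it was 1.17 (0.930 to 1.46), an interval that holds 1. Of the 44 IS elements, 21 held at least 20 reads, and the depth limits what the others can show one by one. No paired analysis was possible because the columns are merged over libraries and carry no replicate number.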
